A study of Mus musculus with 6 samples.

Results

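The Serpin family was followed in epididymal white adipose tissue (WAT) of C57BL/6 mice by all probe sets of the array that carry exactly 1 gene symbol starting with Serpin. These were 39 of 22690 probe sets and stood for 30 of the 12394 genes named in this way, with 10 probe sets of 8 genes in clade a, 18 of 14 genes in clade b and 11 of 8 genes in clades c to i. The TSR group (timed sleep restriction) comprised 3 arrays of mice kept awake by gentle handling for 6 h per day on 5 days, and the control group comprised 3 arrays of mice without TSR. The mice of both groups were young adult wild-type males according to the study's methods, and tissue was taken at ZT18, in the dark phase, which for the TSR group was on the last of these days. Neither the labels nor the methods say whether an array held 1 animal or a pool, and the p-values cover the spread among the 6 samples, which may be technical.

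Serpins are a family of folded proteins of which most trap a protease: the protease cuts an exposed reactive centre loop, stays bound, and both molecules are inactivated. Members are sorted by sequence into clades. Clade a holds mainly secreted plasma proteins made in the liver, such as alpha-1-antitrypsin, clade b holds mainly intracellular inhibitors that protect leukocytes and epithelia from their own granule proteases, and clades c to i hold the inhibitors of clotting, fibrinolysis and complement together with members that no longer inhibit proteases. In adipose tissue, pigment epithelium-derived factor (Serpinf1) and vaspin (Serpina12) are known as adipokines.

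The alpha-1-antitrypsin genes Serpina1b and Serpina1c carried the largest differences of the family, and the DNA just before their start sites is shown. This DNA lies before the transcript. No transcript or probe sequences were compared, so it does not tell which copies of the cluster a probe set can match. Sequences are from RefSeq, build GRCm38.p6, minus strand, for chr12:103738204-103738275 (Serpina1b) and chr12:103904966-103905037 (Serpina1c). Capitals mark a run of 12 bases that begins with GTTAAT, the half-site read by the liver factor HNF1, and the lower-case letters are the 60 bases before it.
Serpina1b: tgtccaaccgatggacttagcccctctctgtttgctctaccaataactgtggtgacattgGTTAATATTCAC
Serpina1c: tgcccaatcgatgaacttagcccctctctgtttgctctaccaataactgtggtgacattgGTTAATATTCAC
These windows differed at 3 of 72 positions, and the run ended 15 bases before the RefSeq start in Serpina1b and 16 bases before it in Serpina1c. Searched on both strands, the 12-base run was present in 5 of 32851 mouse promoters of the same length (250 bases before to 50 after the start, 0.0152%), which were those of the 5 Serpina1 copies a to e. The hexamer GTTAAT alone was present in 7.1% of all promoters and in 4 of the 26 member genes with a promoter in the table (Serpina1b, Serpina1c, Serpinb8 and Serpini2). The palindromic HNF1 consensus was present in 3 promoters (0.00913%), with 0 of the 26 among them, and the E-box CACGTG, which clock factors can bind, in 7.15% of promoters and again in 0 of the 26. A match or its absence describes these letters in this window and no more. The run was chosen after the promoters had been read.

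Of the 39 Serpin probe sets, 17 (14 genes) had a mean log2 signal above the lowest 35% of the array and entered the test, and 22 did not. Among the 17, limma with Benjamini-Hochberg adjustment over all 14707 tested probe sets called 12 (70.6%), compared with 46.6% of all tested probe sets. Of these, 9 were higher after TSR, with a background of 25.6%, and 3 were lower, with a background of 21.0%. This split became 9 and 5 with quantile normalization and 8 and 6 with each array centred on its median. At least 2-fold higher were 5 of the 17, with a background of 2.21%. Serpina1b (both probe sets), Serpinc1 and Serpinf2 had control means below the filter and were tested only because of their TSR signals, so the share called among tested members is not a share of the family. Over all 39 probe sets, the TSR arrays lay above all control arrays in 14 and below them in 6, and the groups overlapped in 19. The same non-overlap was found for 24.0% (above) and 18.9% (below) of all probe sets other than controls.

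Clade a had 4 tested probe sets, of which all 4 were called higher, with log2 fold changes (TSR minus control) of 0.20 for Serpina3n and 4.29 to 5.47 for the 3 alpha-1-antitrypsin probe sets, 2 of which passed the filter only through their TSR signals. Clade b had 6, of which 2 were called lower and 4 were not called, with a median log2 fold change of -0.21, compared with 0.04 over all tested probe sets. Clades c to i had 7, of which 5 were called higher, 1 was called lower and 1 was not called, with log2 fold changes of -0.38 to 2.84. Taking the brightest tested probe set for each of the 14 tested genes, 6 genes were called higher, 3 lower and 5 were not called, which compares with 24.0% of genes higher and 23.0% lower over the array.

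**Figure D1:**
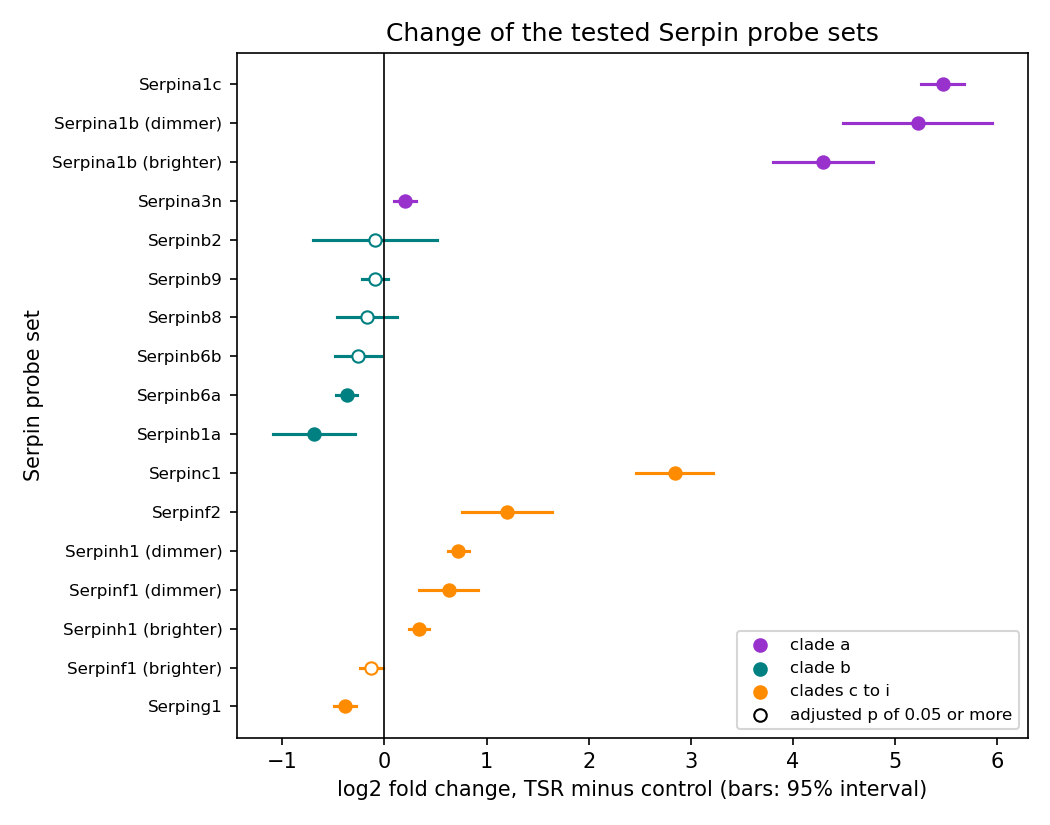
Log2 fold change (TSR minus control, x axis) of the 17 tested Serpin probe sets, with 95% confidence intervals from limma, grouped by clade. The alpha-1-antitrypsin probe sets lie between 4.29 and 5.47, and the 6 clade b probe sets lie below 0, of which Serpinb2 turned to 0.13 without control replicate 3.

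Clade a. Serpina1c, a mouse alpha-1-antitrypsin whose human counterpart inhibits neutrophil elastase, had signals of 3131, 3178 and 2837 in the TSR arrays, against 68.7, 61.0 and 77.5 in the control arrays. The ratio of the group means was 44.2 (TSR 3049 ± 185 and control 69.0 ± 8.27, SD, n = 3 each), and the log2 fold change was 5.47 (SE 0.09, limma adjusted p = 3.3e-09). The brighter probe set of Serpina1b had signals of 773, 868 and 794 after TSR and 30.3, 60.6 and 38.6 in control (log2 fold change 4.29, SE 0.22, limma adjusted p = 1.7e-06). On each of the probe sets of these genes, all TSR arrays lay far above all control arrays. The dimmer probe set of Serpina1b had 790, 783 and 848 after TSR, against 11.5, 29.7 and 29.4 in control, where 1 array was below the 25th percentile of its signals (log2 fold change 5.22, SE 0.32, limma adjusted p = 4.5e-06). Both Serpina1b probe sets have the suffix _x_, which the array's maker gives to probe sets that may bind other transcripts, so which copy of the cluster gave the signal cannot be told from them.

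Serpina3n, a secreted acute-phase inhibitor of the antichymotrypsin group, showed a high signal in both groups. It had 1859, 1983 and 1893 after TSR, against 1621, 1733 and 1631 in control, and the groups did not overlap. The difference was small, with a log2 fold change of 0.20 (SE 0.05, limma adjusted p = 0.0076), and was not called when each array was centred on its median (0.10, limma adjusted p = 0.22).

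The other 6 clade a probe sets were below the filter. Serpina10, the protein Z-dependent inhibitor of clotting factor Xa, had 61.9, 68.0 and 71.0 after TSR and 15.1, 20.4 and 34.5 in control, with no overlap. In the fit without a filter, where 16.0% of all probe sets were called higher and 12.4% lower, its log2 fold change was 1.60 (limma adjusted p = 0.010), but 2 of its 3 control signals were below the 25th percentile of their arrays, so the size of this difference rests partly on dim signals. Serpina12, vaspin, gave 29.9, 25.7 and 35.7 after TSR on its brighter probe set, against 16.1, 3.4 and 2.0 in control. These control signals were all below the 25th percentile of their arrays (20.9 to 24.3), so the TSR mean was at least 1.36-fold higher. Without a filter the log2 fold change was 2.65 (limma adjusted p = 0.035). This p rests on the dim control signals and does not test the bound. The dimmer probe set of Serpina12 was below that percentile on all 6 arrays. For Serpina3a all TSR arrays lay below all control arrays, at 13.2, 2.7 and 3.2 after TSR and 33.5, 14.2 and 20.2 in control, and it was not called without the filter (limma adjusted p = 0.059). Serpina5, the protein C inhibitor, and Serpina6, the corticosteroid-binding globulin that carries glucocorticoids in plasma, had overlapping groups and no signal above 29.4.

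Clade a serpins of plasma are made in hepatocytes, and other hepatocyte genes were higher in the TSR arrays as well. Of 38 hepatocyte marker genes listed, 35 were measured. All TSR arrays lay above all control arrays in 33 of these, beside 24.0% of all probe sets other than controls. The exceptions were Cyp2e1, which was called lower, and the transcription factor Hnf4a, whose groups overlapped at means of 32.1 after TSR and 31.3 in control. Without Cyp2e1, the summed signal of the remaining 34 genes was 13305 to 13778 in the TSR arrays and 940 to 1021 in the control arrays. Albumin (Alb) averaged 3205 ± 143 after TSR and 129 ± 31.6 in control, and transthyretin (Ttr) averaged 2208 after TSR and 56.6 in control. In 11 of the 35 genes all control arrays were below the 25th percentile of their signals. The part of these genes in the signals of Serpina1b, Serpina1c and Serpina10 was not tested. In tissue RNA, cells of a type that differ in number and RNA that differs in amount per cell cannot be told apart. The adipocyte marker adiponectin (Adipoq) had signals of 11541 to 14533 after TSR and 15545 to 20944 in control, so the labelled tissue was present in both groups. Of 10 adipocyte genes tested, 4 were called higher after TSR, 5 lower and 1 was not called, beside 24.0% higher and 23.0% lower over all genes.

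**Figure D2:**
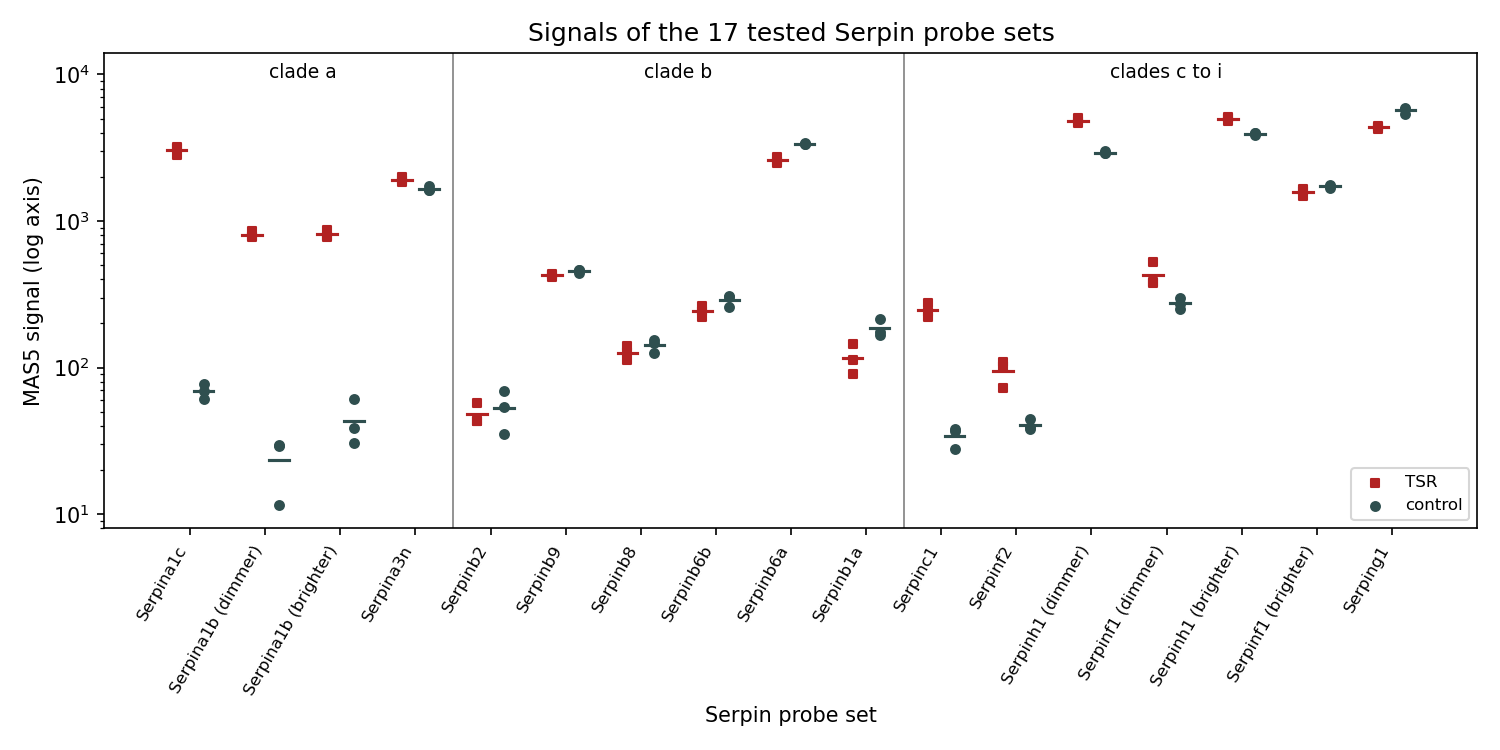
MAS5 signal (log axis) of every TSR and control array for the 17 tested Serpin probe sets, grouped by clade; each point is 1 array. Serpina1b, Serpina1c and Serpinc1 stand apart between the groups, while Serpinb2, Serpinb8 and Serpinb9 do not or hardly do.

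Clade b. Serpinb6a, an intracellular inhibitor whose human relative blocks cathepsin G, had 2575, 2729 and 2488 after TSR, against 3387, 3331 and 3337 in control. It fell by 0.37 on the log2 scale (SE 0.05, limma adjusted p = 2.7e-04), and the means were 2597 ± 122 in TSR and 3352 ± 30.7 in control (SD, n = 3 each). Serpinb1a, the leukocyte elastase inhibitor, had 90.9, 113.1 and 145.5 after TSR, against 166.3, 175.9 and 214.5 in control. Its log2 fold change was -0.69 (SE 0.18, limma adjusted p = 0.012). The call was not made by the methods' t-test with the same adjustment, and the dimmer, below-filter probe set of the gene had overlapping groups, at 30.8, 34.3 and 45.5 after TSR and 25.1, 58.7 and 54.5 in control.

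The remaining 4 tested clade b genes were not called. Serpinb6b had 243.2, 221.0 and 263.5 after TSR, against 302.0, 259.8 and 307.5 in control (log2 fold change -0.26, SE 0.10, limma adjusted p = 0.061), and the highest TSR array was above the lowest control array. Serpinb9, the inhibitor of granzyme B that protects cytotoxic cells, had 424.7, 434.9 and 414.6 after TSR, against 460.6, 438.4 and 460.1 in control. These groups were separated by a narrow margin, and the log2 fold change was -0.09 (SE 0.06, limma adjusted p = 0.22). Serpinb8 had 139.5, 112.1 and 127.7 after TSR, against 125.8, 153.6 and 147.4 in control (log2 fold change -0.17, SE 0.13, limma adjusted p = 0.31). The groups also overlapped for Serpinb2, the urokinase inhibitor PAI-2 of activated macrophages. It had 43.0, 43.5 and 57.5 after TSR, against 53.8, 35 and 68.9 in control (log2 fold change -0.09, SE 0.27, limma adjusted p = 0.81), and the sign turned without control replicate 3 (0.13).

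Of the 12 clade b probe sets below the filter, 10 were below the 25th percentile on all 6 arrays, among them those of Serpinb5, Serpinb7 and Serpinb11, which are known from epithelia. For 1 of the 3 Serpinb5 probe sets and for Serpinb7 all TSR arrays were above all control arrays, but these signals were not well above background.

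Markers of macrophages, an abundant leukocyte of WAT, were lower in the TSR arrays as well. Of 10 macrophage genes tested, 9 were called lower after TSR, beside 23.0% of all genes, and the list's summed signal was 15611 to 15829 in the TSR arrays and 23616 to 24375 in the control arrays. Their part in the clade b values was not tested.

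Clades c to i. Serpinc1, antithrombin, the main plasma inhibitor of thrombin and factor Xa, had 276.7, 220.2 and 238.5 after TSR, against 38.0, 27.8 and 37.1 in control. The ratio of the means was 7.14 (TSR 245 ± 28.8 and control 34.3 ± 5.63, SD, n = 3 each), with a log2 fold change of 2.84 (SE 0.17, limma adjusted p = 3.4e-06). Serpinf2, alpha-2-antiplasmin, the inhibitor of plasmin, had 73.0, 102.6 and 109.2 after TSR and 37.9, 44.9 and 39.4 in control, and rose by 1.20 on the log2 scale (SE 0.20, limma adjusted p = 0.0011). Serpind1, heparin cofactor II, an inhibitor of thrombin, was below the filter but had the same order, with 49.2, 64.3 and 68.1 after TSR and 3.5, 12.8 and 12.2 in control. All its control signals were below the 25th percentile of their arrays, which makes the TSR mean at least 2.70-fold higher. Without a filter its log2 fold change was 2.87 (limma adjusted p = 0.0063), and this p likewise does not test the bound. In each of these genes of plasma inhibitors, the TSR arrays were all above the control arrays, an order found for 24.0% of all probe sets other than controls. Serpinc1 and Serpinf2 were tested only because of their TSR signals. The same order was found for 33 of the 35 measured hepatocyte markers, whose part in these values was not tested.

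Serping1, the C1 inhibitor of the complement and contact systems, was lower in each TSR array than in any control array. It had 4400, 4456 and 4261 after TSR, against 5865, 5850 and 5406 in control, with means of 4372 ± 100.5 in TSR and 5707 ± 261 in control (SD, n = 3 each). It fell by 0.38 on the log2 scale (SE 0.05, limma adjusted p = 2.7e-04), a decrease that was called in all 15 alternative settings run.

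Serpinh1, also known as HSP47, is not an inhibitor but a chaperone that binds collagen in the endoplasmic reticulum. Its brighter probe set had 5048, 5098 and 4825 after TSR, against 3843, 3984 and 4001 in control, and rose by 0.34 on the log2 scale (SE 0.04, limma adjusted p = 3.0e-04). On the dimmer probe set the signals were 5024, 4828 and 4663 after TSR and 2986, 2896 and 2905 in control, a rise of 0.72 (SE 0.04, limma adjusted p = 4.4e-06). Both probe sets thus separated the groups, by different amounts.

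Serpinf1, pigment epithelium-derived factor, a secreted non-inhibitory serpin that binds the triglyceride lipase Pnpla2, gave opposite signs on its probe sets. The brighter had 1482, 1657 and 1601 after TSR, against 1747, 1742 and 1686 in control (log2 fold change -0.13, SE 0.05, limma adjusted p = 0.069), and was not called. The dimmer had 381.1, 521.1 and 380.2 after TSR, against 271.3, 299.4 and 252.0 in control (log2 fold change 0.63, SE 0.13, limma adjusted p = 0.0038), and was called higher, though not by the methods' t-test. No single direction can therefore be given for Serpinf1. Serpini1, neuroserpin, an inhibitor of tissue plasminogen activator known from neurons, and Serpini2 were below the filter, and their groups overlapped.

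The differences between the probe sets of a gene within each array bear on these pairs. For Serpinf1, the brighter exceeded the dimmer by 1.90 ± 0.21 log2 units in TSR arrays and by 2.66 ± 0.10 in control arrays (SD, n = 3 each). For Serpinh1 the excess was 0.04 ± 0.04 in TSR and 0.43 ± 0.06 in control, and for Serpina1b it was 0.01 ± 0.13 in TSR and 0.94 ± 0.51 in control. In each of these genes the groups did not overlap, and the 2-sided exact permutation p was 0.1, the smallest that 3 against 3 arrays can give. For Serpinb1a the excess was 1.65 ± 0.08 in TSR and 2.10 ± 0.58 in control, and the groups overlapped (exact permutation p = 0.3). The array's own control genes differed between the groups too: the 5′ minus 3′ log2 signal of beta-actin was -0.67 ± 0.0013 in TSR and -1.22 ± 0.012 in control, and that of Gapdh was 0.13 ± 0.054 in TSR and -0.52 ± 0.066 in control (SD, n = 3 each, exact permutation p = 0.1 for both). The part of this difference in the probe set pairs was not tested.

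**Figure D3:**
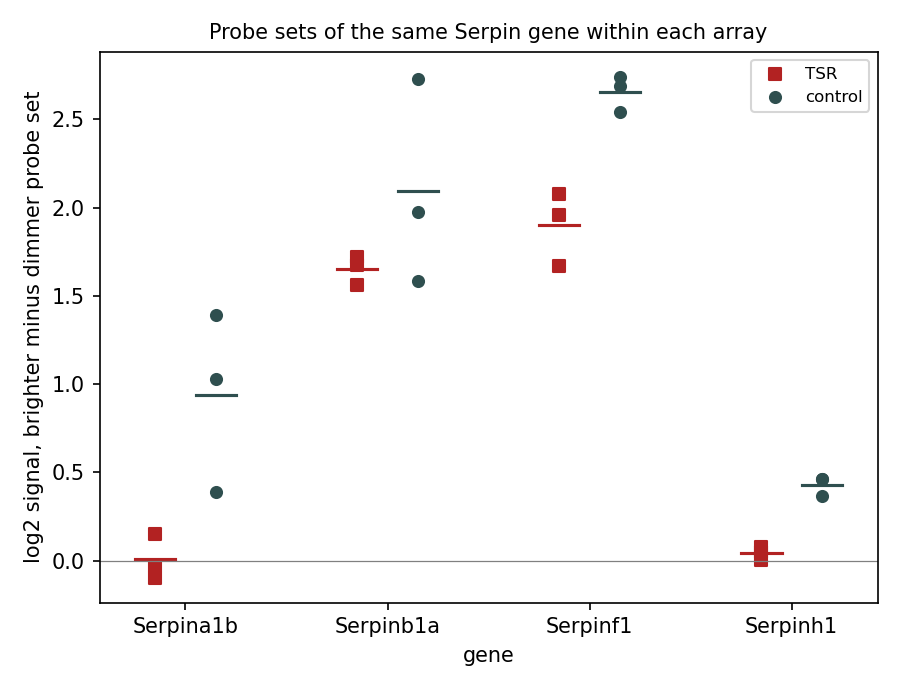
Log2 signal of the brighter minus the dimmer probe set of the same gene within each array (y axis), for Serpin genes with a tested pair or a tested brighter probe set, in TSR and control arrays; each point is 1 array. For Serpina1b, Serpinf1 and Serpinh1 all TSR arrays lie below all control arrays.

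**Figure D4:**
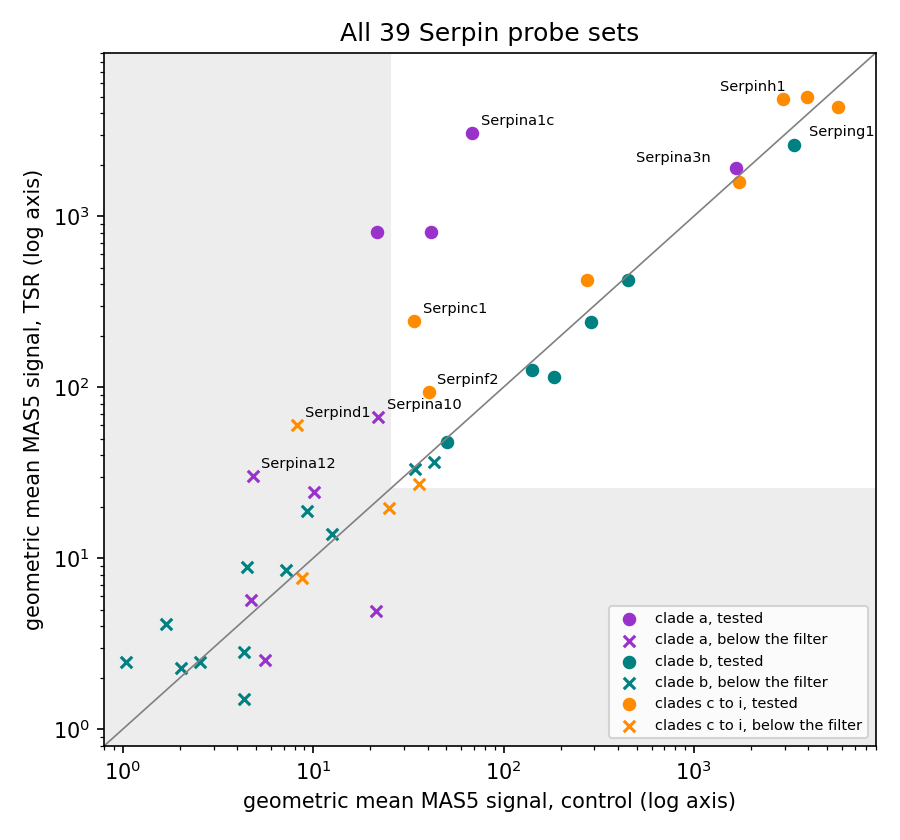
Geometric mean MAS5 signal of all 39 Serpin probe sets in the TSR group (y axis) and in the control group (x axis), both log axes, coloured by clade. Circles are tested probe sets, crosses are those below the filter, the line marks equal signals and the grey area lies under 25.3, the highest 25th percentile of an array. Serpina1b, Serpina1c, Serpinc1 and Serpind1 lie farthest above the line among probe sets with TSR means above the grey area.

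By signal level, 5 tested Serpin probe sets had a mean signal under 200, of which 3 were called, beside 32.7% of all probe sets at that level. At 200 to under 1000 there were 5, of which 3 were called (background 50.1%), and at 1000 and more there were 7, of which 6 were called (background 59.3%). The level was set by the mean over all 6 arrays, so high TSR signals helped to place members in it. Among the called, Serpinc1, Serpinf2 and both Serpina1b probe sets had control means below the filter. Serpina1c, in the brightest class, had a control mean of 69.0. These shares are therefore not independent of the difference between the groups. The brightest class held Serpina1c, Serpina3n and both Serpinh1 probe sets among the higher, Serping1 and Serpinb6a among the lower, and the brighter Serpinf1 probe set, which was not called. Its folds, other than that of Serpina1c, were under 2 in both directions.

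The proteases that serpins inhibit or bind were measured on the same arrays. Of 33 listed, 31 were measured and 16 were tested, of which 3 were called higher, 7 lower and 6 were not called, with a median log2 fold change of -0.16. Over all genes 24.0% were called higher and 23.0% lower, so the share of higher proteases was not above that of the array. The share of lower proteases was above it, a difference that was not tested. Plasminogen (Plg), the liver-made precursor of the target of Serpinf2, had 232, 197 and 176 after TSR, against 26.7, 15.7 and 23.9 in control (log2 fold change 3.22, SE 0.22, limma adjusted p = 9.2e-06). Its control signals were all below the filter, 1 of them below the 25th percentile of its array, so Plg was tested only because of its TSR signals. The same held for F10, also called higher, with control signals of 39.9, 34.8 and 31.9. Prtn3, the neutrophil proteinase that alpha-1-antitrypsin and Serpinb1a can inhibit, had 184, 182 and 187 after TSR, against 625, 603 and 606 in control, and fell by 1.73 on the log2 scale (SE 0.06, limma adjusted p = 2.9e-07). The granule protease granzyme A (Gzma) fell by 0.92 and the collagen-degrading cathepsin K (Ctsk) by 0.87. Among the other called genes, the complement proteases C1ra and C1s1, targets of Serping1, fell by 0.38 and 0.29, tissue plasminogen activator (Plat) fell by 0.50, and Masp1, of the lectin pathway, rose by 0.81. Thrombin (F2), the target of Serpinc1 and Serpind1, was below the filter at means of 157 after TSR and 15.8 in control, with no overlap between the groups. Gzmb, the target of Serpinb9, was below the filter as well, at 16.0 after TSR and 34.9 in control. F10, C1ra, C1s1, Plat, Masp1, F2 and Gzmb were named here after their values had been seen.

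Among 11 cofactors and clearance receptors, all tested, 1 was called higher, 4 lower and 6 were not called (median log2 fold change 0.07), beside 24.0% higher and 23.0% lower over all genes. Vitronectin (Vtn), a plasma and matrix protein that binds serpin complexes, rose by 0.19 but was not called with median centring. The receptor Vldlr fell by 0.53, the heparan sulfate proteoglycan syndecan-1 (Sdc1) by 0.36, Lrp6 by 0.33 and the receptor chaperone Lrpap1 by 0.26. Lrp1, the receptor that clears serpin-protease complexes, was not called (log2 fold change 0.15, SE 0.07, limma adjusted p = 0.10).

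The collagens and collagen-modifying enzymes, which meet Serpinh1 in the endoplasmic reticulum, were tested for 19 genes. Of these, 5 were called higher, 9 lower and 5 were not called (median log2 fold change -0.06), beside 24.0% higher and 23.0% lower over all genes. The share called higher was thus close to that of the array, and the share called lower was above it, a difference that was not tested. Fibrillar and microfibrillar chains were among the lower: Col6a3 fell by 0.83, Col3a1 by 0.68 and Col1a2 by 0.68 on the log2 scale, whereas the crosslinking enzyme Lox rose by 0.66. Col1a2 had 5252, 5672 and 5049 after TSR, against 8244, 8863 and 8383 in control. The direction of Serpinh1 was thus opposite to that of these 3 chains, named for their large change, and the same as that of Lox. Other chains were mixed: Col1a1, Col5a2 and Col6a2 were called lower, Col4a2 higher (0.31), and Col4a1, Col5a1 and Col6a1 were not called. These calls are for the brightest probe set of each gene, and the paper lists another Col5a1 probe set as at least 2-fold higher. Of the other enzymes, P4ha2, Plod1 and Plod3 were called higher and Plod2, Loxl1 and Ppib lower. These further genes were named after their values had been seen. Of 7 markers of adipose progenitors and fibroblasts, 1 was called higher and 4 lower, with a summed signal of 16168 to 17780 after TSR and 22828 to 25514 in control, and their part in the values of Serpinh1 and Serping1 was not tested.

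**Figure D5:**
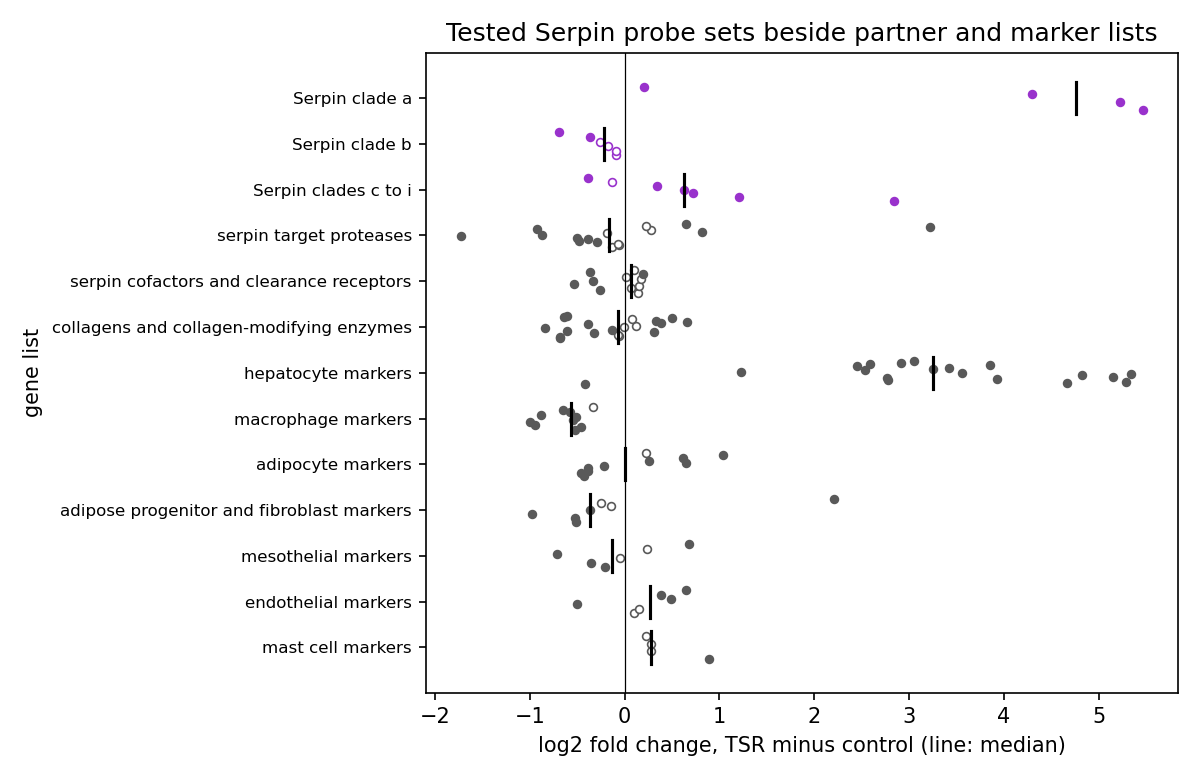
Log2 fold change (TSR minus control, x axis) of the 17 tested Serpin probe sets by clade, and of the tested genes of the partner and marker lists, each gene by its brightest tested probe set. Filled points were called by limma, open points were not, and vertical lines are medians of the tested rows. For clade a, clades c to i, the hepatocyte markers and the target proteases, these rows include some that passed the filter through their TSR signals. The macrophage markers (median -0.56) lie to the left of 0, and most hepatocyte markers lie to the right.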

How the data were processed

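RNA of epididymal WAT from 3 TSR and 3 control samples was hybridised to Affymetrix mouse arrays. The authors normalised the scans with the MAS5 algorithm in Affymetrix Expression Console (version not given in the sources used here) and deposited linear signal intensities, each array scaled by the authors. The labels give frozen tissue and Trizol for RNA extraction, the paper RNAlater and a lipid tissue kit. No further scaling was applied. Median signals were 127 to 141 per array. Within groups the log2 signals had a median SD of 0.10, and precision is limited by the small number of arrays.

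Intensities were taken to log2. Left out were 64 control probe sets and, of the rest, the 35% that were dimmest (mean log2 signal below 5.45, a signal of 43.8). The other 14707 were compared with limma 3.58.1 in R 4.3.3 (eBayes with intensity trend, 2-sided, Benjamini-Hochberg, threshold 0.05). The fit was tested on simulated data. Ratios divide mean signals, and log2 fold changes subtract mean log2 signals. Where all control signals were below the 25th percentile of their arrays, a fold is a lower bound, the mean log2 TSR signal against these percentiles. A gene stands by its brightest tested probe set (mean log2 signal). Probe sets were named from the platform annotation (20393 of 22690 with 1 symbol, 691 with several, 1606 with none). Promoters were searched with Python 3.11.15.

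Values in every array are given for members called at 2-fold or more, the 3 brightest genes of each clade class, the called genes of clades c to i and the 5 clade b genes with the largest change. Of each list, up to 4 called genes with the largest change were named, with exceptions stated. Members and lists were chosen with earlier results of these data known. Alternatives were limma without the trend, the methods' t-test on linear and log2 signals, quantile normalization, median centring, no filter, a 50% filter, signals raised to the 25th percentile, no _x_ or _s_ probe sets, a replicate block, and leaving out each array.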

Additional observations from a re-analysis of the deposited data

How the results depend on the processing

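Of the 17 tested Serpin probe sets, 10 kept their direction and call in every setting in which they were tested. Serpinc1 and Serpinf2, among these 10, were not tested with the lowest 50% left out. The count of 3 lower probe sets became 5 with quantile normalization, 6 with median centring and 5 with the replicate block, and was 3 to 4 with 1 array left out. The split of higher against lower, 9 against 3, was 8 against 6 with median centring, which moved the median log2 fold change of all tested probe sets to -0.07, against 0.04. Clade a had 2 higher probe sets in place of 4 without _x_ and _s_ probe sets. Clade b had 1 lower in place of 2 by both forms of the methods' t-test, which lost Serpinb1a, and 4 with quantile normalization and with median centring, which added Serpinb6b and Serpinb9. Clades c to i had 3 higher in place of 5 with the lowest 50% left out, and 2 lower in place of 1 with median centring and with the replicate block, which added the brighter Serpinf1 probe set (1 to 2 with 1 array left out, 2 without TSR replicate 2). Higher target proteases numbered 8 in place of 3 without a filter and 0 with the lowest 50% left out. Higher cofactors numbered 2 in place of 1 with quantile normalization, 0 with median centring and 4 with the replicate block (0 to 2 with 1 array left out, 0 without TSR replicate 1 or control replicate 3, and 2 without TSR replicate 3 or control replicate 2). Higher collagen genes numbered 3 in place of 5 with median centring and 3 without TSR replicate 2, the lowest with 1 array left out. Serpinb2, not called, ranged between -0.36 and 0.13 with 1 array left out, and was 0.13 without control replicate 3. Serpinb6b was called without TSR replicate 3 (-0.32) and without control replicate 2 (-0.33), and the brighter Serpinf1 probe set without TSR replicate 2 (-0.16). With signals raised to the 25th percentile, the log2 difference of Serpina12 was 0.44 and that of Serpind1 was 1.43, against 2.65 and 2.87. The cause of these changes was not tested. The samples share only a replicate number: same-numbered deviations correlated at 0.02, 0.19 and 0.17, and the replicate block called 4043 probe sets higher and 3391 lower, against 3768 and 3082. No paired analysis beyond this block was run. The methods' t-test called 2918 higher and 2304 lower on linear signals.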

Other observations

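The array also held 3 probe sets annotated to several Serpin genes, which were left out of the family counts. The probe set shared by Serpina1a and Serpina1d had signals of 601, 570 and 665 in the TSR arrays, against 43.5, 45.4 and 51.3 in the control arrays (log2 fold change 3.71, SE 0.11, limma adjusted p = 7.4e-08). The probe set shared by Serpina1b, Serpina1c and Serpina1e was below the filter, with 59.1, 56.3 and 63.8 after TSR and 1.5, 1.0 and 9.1 in control. Every control signal lay under the 25th percentile of its array, so the TSR mean was at least 2.69-fold higher. These probe sets of the alpha-1-antitrypsin cluster had the same order of the groups as the 3 probe sets that the annotation used here gives to Serpina1b or Serpina1c alone. For the dimmer Serpina1b probe set, the paper lists Serpina1a as well as Serpina1b. The probe set shared by 4 Serpinb9 copies (Serpinb9e, Serpinb9f, Serpinb9g and Serpinb9h) was below the 25th percentile on all 6 arrays, and its groups overlapped.

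All 8 clade a genes are on chromosome 12, and the 14 clade b genes are on chromosomes 1 (5 genes) and 13 (9 genes), whereas the 8 genes of clades c to i are spread over chromosomes 1, 2, 3, 7, 11 and 16. On chromosome 12 the cluster held both the most changed genes (Serpina1b and Serpina1c) and Serpina5 and Serpina6, whose groups overlapped at signals of at most 29.4.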
